A study of Mus musculus with 7 samples.

Results

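Transcripts of 8 factors, most of them best known from pluripotent stem cells, were followed in ovulated mouse eggs. The eggs either lacked the maternal effect gene Nlrp2 or were wild-type (WT). The genes were taken by name: Pou5f1 (which encodes OCT4), Sox2, Nanog, Sall4, Klf4, Klf17, Lin28a and Lin28b. All 8 were present among the 18951 gene symbols of the deposited table. There were 4 Nlrp2-null pools and 3 WT pools of oocytes, all from C57BL/6 females of 4 weeks. About 150 oocytes, combined from 3 to 4 mice, made up a pool after ampullar collection and removal of cumulus cells with hyaluronidase. How the null allele was made, and whether it acts outside the oocyte, is not described in the labels. Values are the authors' normalized counts, that is reads per gene divided by a size factor per pool.

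In embryonic stem cells OCT4 and SOX2 bind DNA side by side and, with NANOG, hold cells in the pluripotent state. SALL4 and the Kruppel-like factor KLF4 are zinc finger transcription factors of the same network, and KLF17 is a further Kruppel-like factor. LIN28A and LIN28B are RNA-binding proteins that block the maturation of let-7 microRNAs. A fully grown egg makes almost no new RNA, so the transcripts measured in it are a maternal store that was laid down during oocyte growth and is drawn on or degraded in the early embryo.

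The pools matched their labels. Nlrp2 lay at 107, 8.19, 1.96 and 63.8 normalized counts in null pools 1 to 4, against 15527, 20130 and 16792 in WT pools 1 to 3 (log2 fold change -9.70, SE 0.851). The null values were 0.0112% to 0.614% of the WT mean. Between 71073973 and 96330083 reads per pool stood behind the table. All 14 oocyte markers looked up, such as the zona genes Zp1 to Zp3 and the growth factor genes Gdf9 and Bmp15, were above 0 in every pool. Their summed level was 852500 to 974000 normalized counts in null and 817500 to 877200 in WT pools. Of the 14, 8 had a positive and 6 a negative fold change, with a limma unadjusted p under 0.05 for 1 and 2 of them. Here limma called 0 and DESeq2 called 1, Dazl (log2 fold change -0.41, adjusted p = 0.000593 in DESeq2 and 0.0826 in limma). Dazl lay at 30547 to 33488 in null and 39944 to 47009 in WT pools. Cumulus and granulosa markers were also detected, at a summed 134600 to 156400 in null and 129700 to 152000 in WT pools, with 27 or 28 of 29 markers above 0 in a pool. Rgs2 alone made up 74450 to 76576 in null and 79394 to 92257 in WT pools (log2 fold change -0.15). Of 27 tested markers 21 had a positive fold change, 4 of them with a limma unadjusted p under 0.05; limma called 0 and DESeq2 called 1, the inhibin subunit gene Inhbb (adjusted p = 6.6e-06 in DESeq2 and 0.101 in limma). Amh and Areg were at 0 in 5 of 7 pools each. The mean log2 marker level was 8.88, 9.08, 9.54 and 10.23 in null pools 1 to 4 and 9.44, 8.40 and 8.75 in WT pools 1 to 3, a difference of 0.57 (two-sided exact permutation test, p = 0.257, 35 splits of 7 pools allowing 0.0286 at best). Null 3 and null 4 had the highest means. Oviduct epithelium markers summed to 29280 to 36560 in null and 20770 to 30580 in WT pools, of which the cadherin gene Cdh1 made up 27978 to 36101 and 20358 to 30071. Their mean log2 level differed by 0.68 (two-sided exact permutation test, p = 0.314), and the ciliated-cell gene Foxj1 was at 0 in 6 pools. Of 8 tested oviduct markers 7 had a positive fold change, 3 of them with a limma unadjusted p under 0.05, and limma called 0. Among all 15071 genes tested, 50.7% had a positive fold change and 10.2% a limma unadjusted p under 0.05. Of these genes limma called 0.0664%, and DESeq2 called 1.54% of the 12991 to which it gave an adjusted p. Null 4 had the highest mean of the oviduct markers, with Krt19 at 448 normalized counts there and at 0 in every other pool. Blood markers summed to 919 to 3623 in null and 816 to 1427 in WT pools.

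None of the pluripotency factors was called as changed by the loss of Nlrp2. Of the 8 genes, 7 had a mean of at least 10 normalized counts and entered the fit over all 15071 such genes (limma on log2(normalized count + 1), Benjamini-Hochberg adjusted p under 0.05). 0 of these 7 were called, where 0.0664% of all genes were. edgeR and DESeq2 on the recovered whole reads also called 0 of the 7. Beside this, edgeR called 0.0464% of all genes, and DESeq2 1.54% of the 12991 genes to which it gave an adjusted p. Of the 7, 1 gene, Sall4, had an unadjusted p under 0.05 in limma, a level that 10.2% of all genes reached. The null pools lay above all WT pools for 3 of the 7 (Sall4, Klf17 and Lin28b), where 4.74% of all genes did so and 9.91% did so in either direction. Fold changes were positive for 5 of the 7 and for 50.7% of all genes. The median log2 fold change was 0.08 over the 7 genes and 0.01 over all genes tested. Because each value is an average over a pool, fewer oocytes with a transcript and less transcript per oocyte cannot be told apart.

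**Figure D1:**
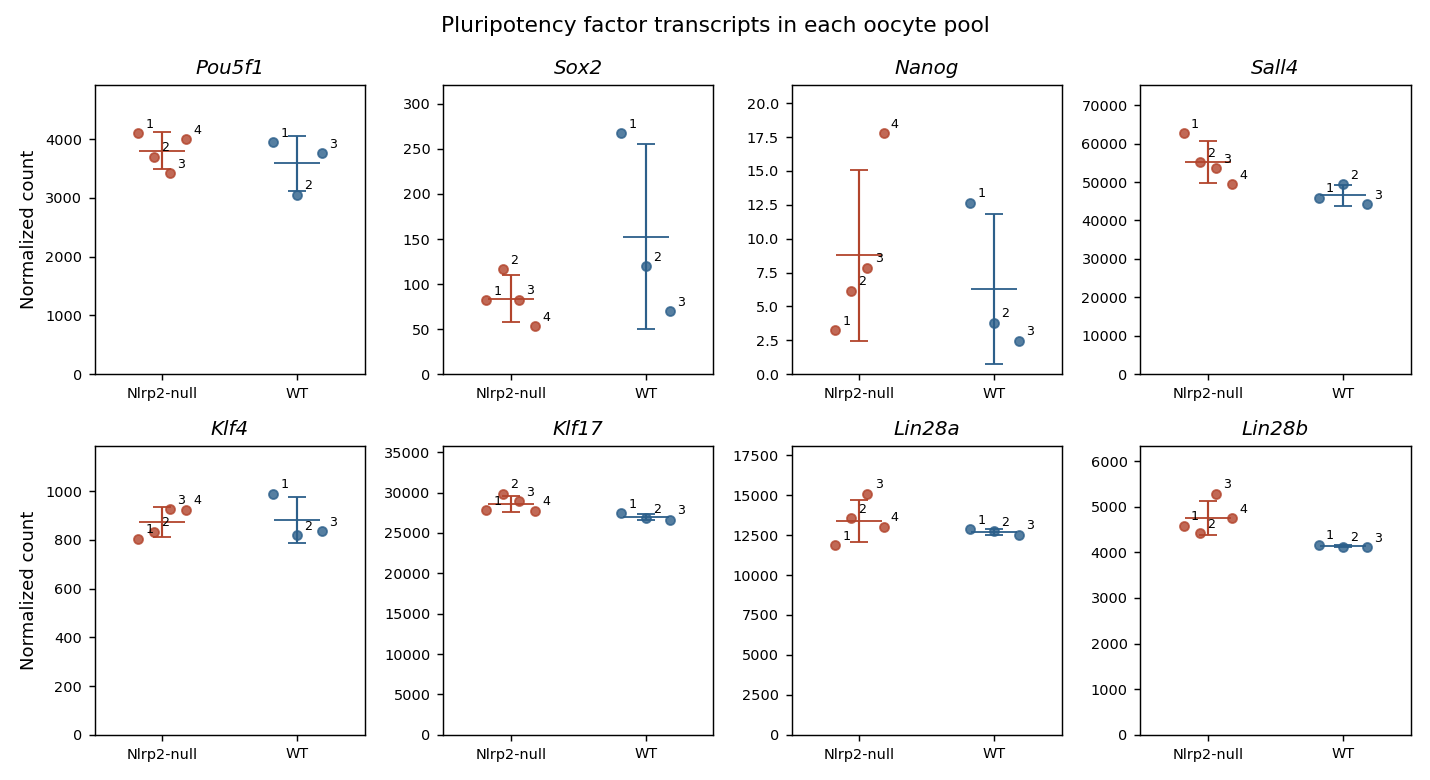
Normalized count (vertical axis, from 0) of each of the 8 genes in 4 Nlrp2-null pools (left, red) and 3 WT pools (right, blue). Points are pools with their number, the horizontal bar is the mean and the whiskers are the SD. Sall4, Klf17 and Lin28b are the 3 genes whose groups do not overlap, and the gaps between the groups are small beside the levels.

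**Figure D2:**
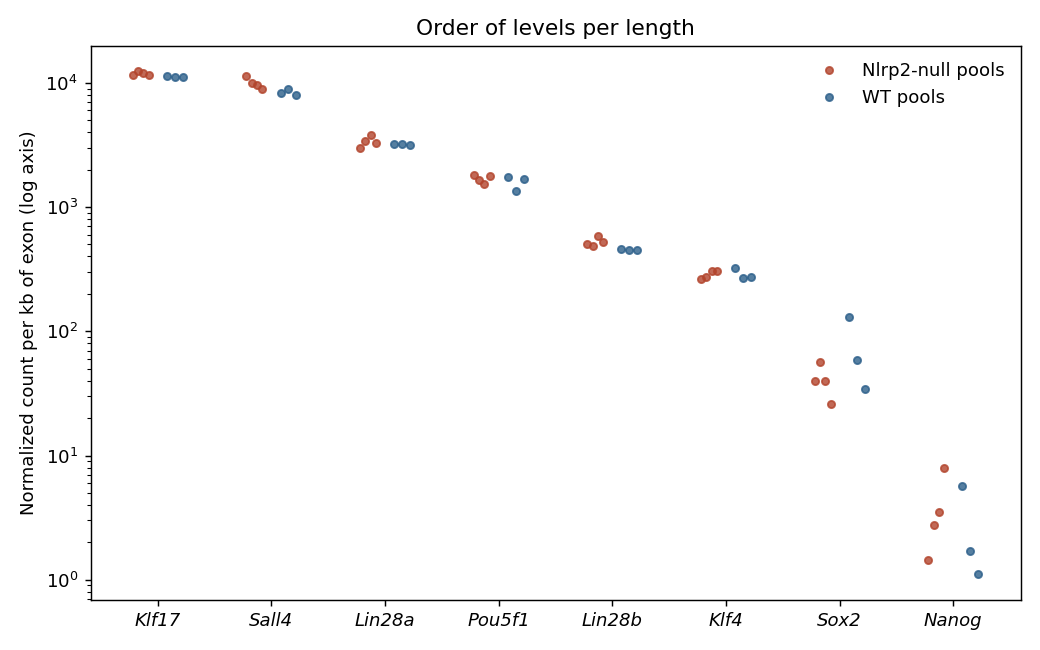
Normalized count per kb of exon (vertical log axis) of each gene in each Nlrp2-null pool (red, left of the tick) and WT pool (blue, right), ordered by the WT mean. The order runs from Klf17 to Nanog and is the same in both genotypes.

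Per length, the levels in the pools were led by Klf17 and Sall4 and ended with Nanog. Levels were set between genes only as normalized counts per kb of exon, with exon lengths from GENCODE M21. Klf17 averaged 11910 ± 421 per kb in null pools (SD, n = 4) and 11240 ± 166 per kb in WT pools (SD, n = 3), above 98.7% and 98.6% of the 14508 tested genes with a length. Sall4 followed at 9979 ± 1000 and 8402 ± 479 per kb, Lin28a at 3349 ± 332 and 3181 ± 44.6, and Pou5f1 at 1693 ± 139 and 1596 ± 210. Lin28b stood at 525 ± 41.3 and 456 ± 2.97 per kb and Klf4 at 286 ± 20.4 and 289 ± 30.7. Sox2 came next with 40.7 ± 12.6 per kb in null and 74.1 ± 49.96 per kb in WT pools. Nanog was last at 3.91 ± 2.82 and 2.81 ± 2.47 per kb, above 3.74% and 4.28% of genes. The order was the same in both genotypes, and no 2 neighbours overlapped within a genotype. The closest neighbours were Klf17 and Sall4, with a ratio of 1.19 in null and 1.34 in WT pools. Of the 3 factors usually named together as the core of stem cell pluripotency, OCT4, SOX2 and NANOG, transcripts were thus plentiful for the first, sparse for the second and near the limit of detection for the third.

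Pou5f1, the OCT4 gene, was measured at a high level and its groups overlapped. It lies on chromosome 17 (35506018 to 35510772, plus strand, GRCm38). In null pools 1 to 4 there were 4103, 3702, 3416 and 4005 normalized counts, against 3947, 3055 and 3764 in WT pools 1 to 3. The lowest pool of all was WT 2 and the highest null 1. On the log2 scale the fold change was 0.09 with an SE of 0.129 (limma, adjusted p = 0.855), and the 95% interval of the fold ran from 0.881 to 1.29. Without WT 2 it was -0.02. Pou5f1 shares 14.1% of its exon bases with the antisense gene Gm19553, whose reads cannot be told apart if strand was not used in counting.

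Sox2, the partner of OCT4 on DNA, had a lower mean in null pools that rested on 1 WT pool. Its gene on chromosome 3 (34650405 to 34652461, plus strand) lies within the long noncoding RNA gene Sox2ot on the same strand, with no exon bases in common. It reached 82.4, 117, 82.4 and 53.4 normalized counts in null pools 1 to 4, against 268, 120 and 70.0 in WT pools 1 to 3. WT 1 held 254 reads (exact 95% Poisson interval 224 to 287, counting error only), against 51 to 126 reads in every other pool; the genotypes overlapped, with WT 3 inside the null range. The fitted log2 fold change was -0.69 with an SE of 0.571 (limma, adjusted p = 0.719), and -0.18 without WT 1 (limma, adjusted p = 0.943). With a fold interval of 0.267 to 1.43, neither a large loss nor a gain could be told from no difference.

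Nanog, the homeobox factor of the inner cell mass, was barely detected and too low to enter the fit. It lies on chromosome 6 (122707489 to 122714633, plus strand). There were 3, 6, 8 and 17 reads in null pools 1 to 4 and 12, 4 and 3 reads in WT pools 1 to 3. The exact 95% Poisson interval was 9.90 to 27.2 reads for null 4 and 0.619 to 8.77 for WT 3, and these cover counting error only. In normalized counts the null pools had 3.25, 6.14, 7.85 and 17.8, against 12.6, 3.802 and 2.47 in WT pools. The difference in mean log2 level was 0.47 (two-sided exact permutation test, p = 0.543). With 1 pool left out this difference ran from 0.06 without WT 3 and 0.08 without null 4 to 1.05 without WT 1, and it was -0.147 without null 3 and null 4. The 3 pools with most Nanog, null 4, WT 1 and null 3, also had the 3 highest cumulus marker means; the part of cumulus RNA in this was not tested. In the reference transcripts 4.53% of the 50-base stretches of Nanog also occur in other genes, among them the pseudogene Nanog-ps1, so not all of these few reads can be assigned to Nanog with certainty.

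Per kb of exon, Sox2 and Nanog were the lowest of the members. Nanog has letters of the OCT4 and SOX2 motifs close to a RefSeq start, and Sox2 those of the OCT4 motif. Their promoters are shown for that reason. Capitals mark the octamer core ATGCAAA and the SOX core ACAATG, searched on both strands in RefSeq windows of 250 bases before to 50 after a start (GRCm38.p6); no match overlapped another.
Nanog, chr6:122707239-122707538, plus strand: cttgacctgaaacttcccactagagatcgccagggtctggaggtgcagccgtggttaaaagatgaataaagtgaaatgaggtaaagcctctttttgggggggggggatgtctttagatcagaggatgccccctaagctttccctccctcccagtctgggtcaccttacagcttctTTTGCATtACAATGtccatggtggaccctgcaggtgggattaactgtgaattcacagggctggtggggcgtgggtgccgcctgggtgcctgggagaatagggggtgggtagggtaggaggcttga
Sox2, chr3:34649745-34650044, plus strand: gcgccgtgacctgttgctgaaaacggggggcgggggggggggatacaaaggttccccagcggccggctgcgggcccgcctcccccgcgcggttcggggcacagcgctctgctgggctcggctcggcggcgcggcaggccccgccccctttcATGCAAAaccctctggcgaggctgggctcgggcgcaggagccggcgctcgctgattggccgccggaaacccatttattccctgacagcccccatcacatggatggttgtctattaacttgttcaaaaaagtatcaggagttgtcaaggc
In the Nanog window the octamer core (on the minus strand, at -75 from the start) and the SOX core (at -67) were separated by 1 base. The Sox2 window held an octamer core at -99 and no SOX core. Its RefSeq start lies upstream of the GENCODE gene start given above (34650405), which the window does not reach. Of 32851 promoter windows, 4.63% held the octamer core and 12.6% the SOX core. Among the 7 members with a window, which leaves out Sall4, the octamer core occurred for 2, Sox2 and Nanog, and the SOX core for 4, in 1 of the 2 windows of Pou5f1, in both of Nanog and in those of Klf17 and Lin28a. The core TAATTG, bound by the oocyte factor NOBOX, occurred only in the Lin28b window, at -62, and in 8% of all windows.

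Sall4 had the smallest p value among the 8 genes, without passing over all genes. SALL4 is a zinc finger repressor that works with the NuRD deacetylase complex and is needed in the mouse for germ cells and the early embryo. Its gene lies on chromosome 2 (168748332 to 168767943, minus strand). Levels were 62730, 55166, 53588 and 49492 normalized counts in null pools 1 to 4, against 45966, 49399 and 44181 in WT pools 1 to 3. The null pools all exceeded the WT pools, but null 4 exceeded WT 2 only 1.002-fold. The means were 55244 ± 5534 (SD, n = 4) and 46515 ± 2652 (SD, n = 3), a fold of 1.18 (95% interval 1.04 to 1.35). The log2 fold change was 0.24 (SE 0.0868), with a limma unadjusted p of 0.0125 and an adjusted p of 0.363, 0.381 in edgeR and 0.167 in DESeq2. The library numbers in the labels form a lower run (2 null and 2 WT pools) and a higher run (2 null pools and 1 WT pool), and the log2 difference was 0.30 within the lower run and 0.22 within the higher. Null 1 carried the highest value, and without it the log2 fold change was 0.18. Sall4 shares 9.5% of its exon bases with the opposite-strand gene Gm14261.

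**Figure D3:**
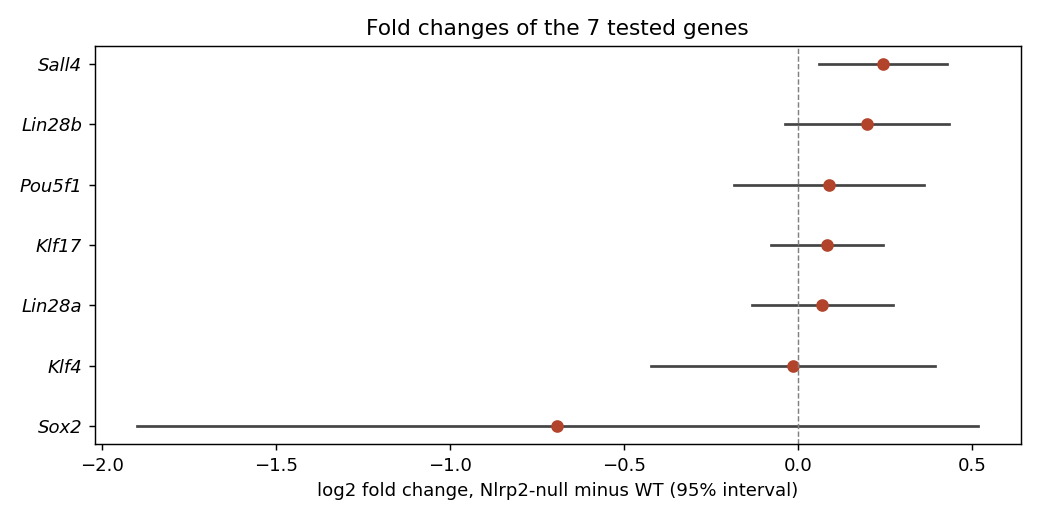
log2 fold change, Nlrp2-null minus WT (horizontal axis), of the 7 tested genes, with 95% intervals from limma. Every interval but that of Sall4 (0.06 to 0.43) includes 0, and that of Sox2 is the widest.

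Klf17 varied least of the 8 genes over all 7 pools (coefficient of variation 4.09%), though within WT pools Lin28b (0.651%) and Lin28a (1.4%) varied less than Klf17 (1.47%). KLF17 is a Kruppel-like factor that is abundant in mouse oocytes and cleavage embryos, and its gene lies on chromosome 4 (117757836 to 117765648, minus strand). Its values were 27789, 29841, 28938 and 27735 normalized counts in null pools 1 to 4, against 27419, 26828 and 26664 in WT pools 1 to 3. The groups did not overlap, yet the highest pool exceeded the lowest only 1.12-fold. This gave a log2 fold change of 0.08 with an SE of 0.0761 (limma, adjusted p = 0.755), and the fold interval was 0.947 to 1.18. In the reference transcripts 9.32% of the 50-base stretches of Klf17 recur in the pseudogene Gm20690.

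Klf4, the reprogramming factor, was measured at a far lower level and was not called. It lies on the same chromosome (55527143 to 55532466, minus strand). Null pools 1 to 4 had 805, 834, 926 and 924 normalized counts, against 989, 820 and 835 in WT pools 1 to 3. The groups overlapped, with the highest and the second lowest pool both WT. Its log2 fold change was -0.01 with an SE of 0.192 (limma, adjusted p = 0.989), with a fold interval of 0.747 to 1.32. As for Nanog, the 3 highest pools were WT 1, null 3 and null 4, again those richest in cumulus markers; Klf4 spans 1.23-fold over all pools, and in a fit that adds the mean of these markers its log2 fold change was -0.12 (limma, adjusted p = 0.928). Per kb, Klf17 exceeded Klf4 41.8 ± 3.44 times in null and 39.1 ± 3.41 times in WT pools.

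**Figure D4:**
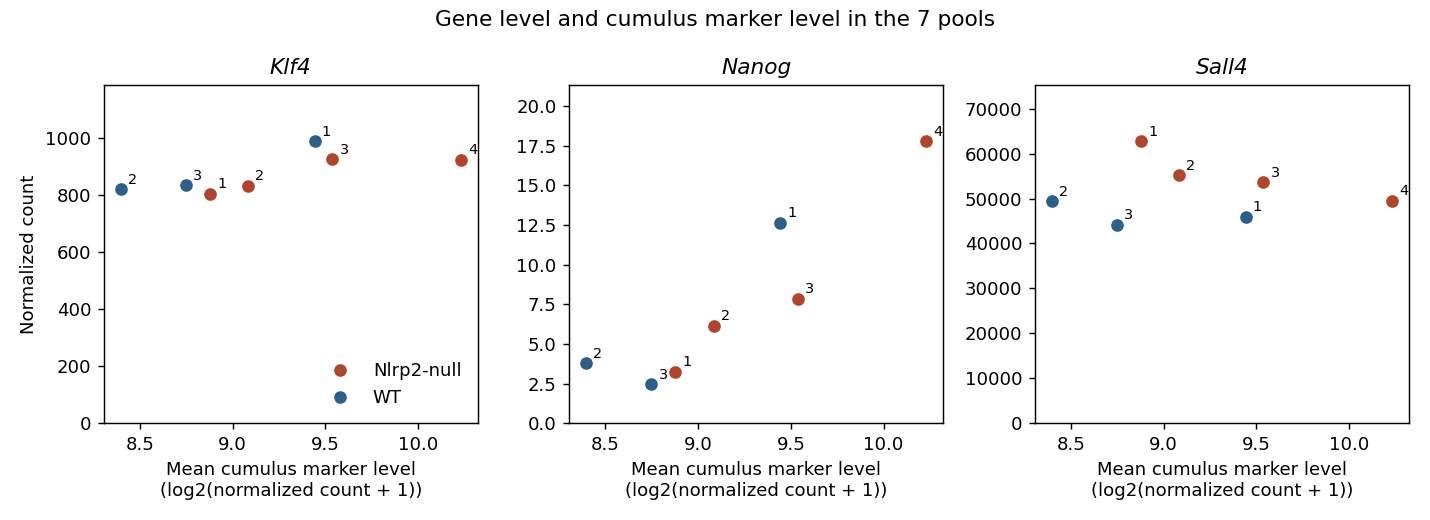
Normalized count (vertical axis, from 0) of Klf4, Nanog and Sall4 against the mean log2 level of cumulus and granulosa markers (horizontal axis) in 4 Nlrp2-null (red) and 3 WT (blue) pools, with pool numbers. Null 4, null 3 and WT 1, farthest right on the axis, hold the highest Nanog and Klf4 values, and for Sall4 the highest value is that of null 1.

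Lin28a and Lin28b encode sister proteins that bind let-7 precursors and block their maturation, while let-7 in turn represses LIN28 transcripts in many cells. Both sides of that loop can be read in sequence. The mature microRNAs share a seed (bases 2 to 8, in capitals), and the let-7g precursor carries the letters GGAG (in capitals) on the 3′ side of its loop, where the zinc knuckles of LIN28 bind; 9 of 11 let-7 precursors in RefSeq hold them after the mature 5′ arm.
mmu-let-7a-5p, chr13:48538239-48538260: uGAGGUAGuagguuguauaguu
mmu-let-7g-5p, chr9:106178846-106178867: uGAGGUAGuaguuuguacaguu
Mirlet7g precursor, chr9:106178840-106178927: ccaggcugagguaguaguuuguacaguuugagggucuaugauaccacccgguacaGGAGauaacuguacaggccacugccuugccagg
The complement of the seed, CTACCTC, occurred in the 3′ untranslated region of 3 of the 8 genes, 4 times in Lin28b, 2 times in Lin28a and once in Sall4, and in 8.83% of 21037 coding genes. These 3 had the longest such regions of the 8, at 4445, 2775 and 1697 bases. In the other members the region had 221 to 1271 bases. The share over coding genes was not matched for length, so it cannot show whether 3 of 8 is more than length gives. The sites below are 23 bases long with the seed match in capitals, all on the minus strand of GRCm38, from GENCODE M21 transcripts.
Sall4 site 1, chr2:168748941-168748963: gagggctttaatttatCTACCTC
Lin28a site 1, chr4:134005190-134005212: tgcacagcctgttgaaCTACCTC
Lin28a site 2, chr4:134004552-134004574: tgagatcgccacaaacCTACCTC
Lin28b site 1, chr10:45381023-45381045: cacccgggcgggaagtCTACCTC
Lin28b site 2, chr10:45378649-45378671: atatacttgttagtaaCTACCTC
Lin28b site 3, chr10:45378477-45378499: tgtttacagcacatggCTACCTC
Lin28b site 4, chr10:45377061-45377083: gaaatgatggcaccgaCTACCTC
Mature let-7 was not measured in these libraries, and a match is a description of the letters only.

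Lin28a was the more abundant of the pair and overlapped between genotypes. It lies on chromosome 4 (134003330 to 134018841, minus strand) and shares 5.86% of its exon bases with the opposite-strand gene Gm13061. Null pools 1 to 4 held 11877, 13545, 15077 and 13035 normalized counts, against 12858, 12758 and 12512 in WT pools 1 to 3. The WT pools sat close together, with a coefficient of variation of 1.4%, while null 1 lay below and null 2, null 3 and null 4 above all of them (9.92% in null pools). This was a log2 fold change of 0.07 with an SE of 0.0955 (limma, adjusted p = 0.849), with a fold interval of 0.912 to 1.21.

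Lin28b had higher values in every null pool without passing the test. It lies on chromosome 10 (45376620 to 45486395, minus strand), and no stretch of 50 bases is shared between its transcripts and those of Lin28a or another gene. Null pools 1 to 4 had 4585, 4416, 5282 and 4753 normalized counts, against 4165, 4122 and 4116 in WT pools 1 to 3. The lowest null pool exceeded the highest WT pool 1.06-fold. The means were 4759 ± 375 (SD, n = 4) and 4134 ± 26.9 (SD, n = 3), a fold of 1.15 (95% interval 0.975 to 1.35). The log2 fold change was 0.20 (SE 0.111, limma unadjusted p = 0.0912, adjusted p = 0.574). It was 0.12 within the lower and 0.28 within the higher run of library numbers. Leaving out null 3 and null 4, where cumulus markers were highest, it was 0.12 (limma adjusted p = 0.872). Per kb, Lin28a exceeded Lin28b 5.88, 6.96, 6.48 and 6.22 times in null pools 1 to 4 and 7.0, 7.02 and 6.90 times in WT pools 1 to 3, so that null 2 was the 1 null pool that reached the WT range.

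The genes around these factors were likewise free of calls. Across 9 lists (stem cell network, Kruppel-like, SOX and POU families, SALL with NuRD, let-7 processing, let-7 targets, early lineage factors, and signalling inputs), 132 genes other than the 8 were tested and 0 were called by limma, edgeR or DESeq2. Over the whole fit limma called 0.0664% of genes, edgeR 0.0464% and DESeq2 1.54% of those with an adjusted p. At such shares a count of 0, here or in the single lists below, says little about a list. DESeq2 gave no adjusted p for some of the 132 genes, such as Sox9 and Sox1, and so could not call these. An unadjusted p under 0.05 was reached by 11 of them (8.33%, against 10.2% of all genes), 4 with higher and 7 with lower values in null pools. Their median log2 fold change was 0.02, beside 0.01 over all genes tested.

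**Figure D5:**
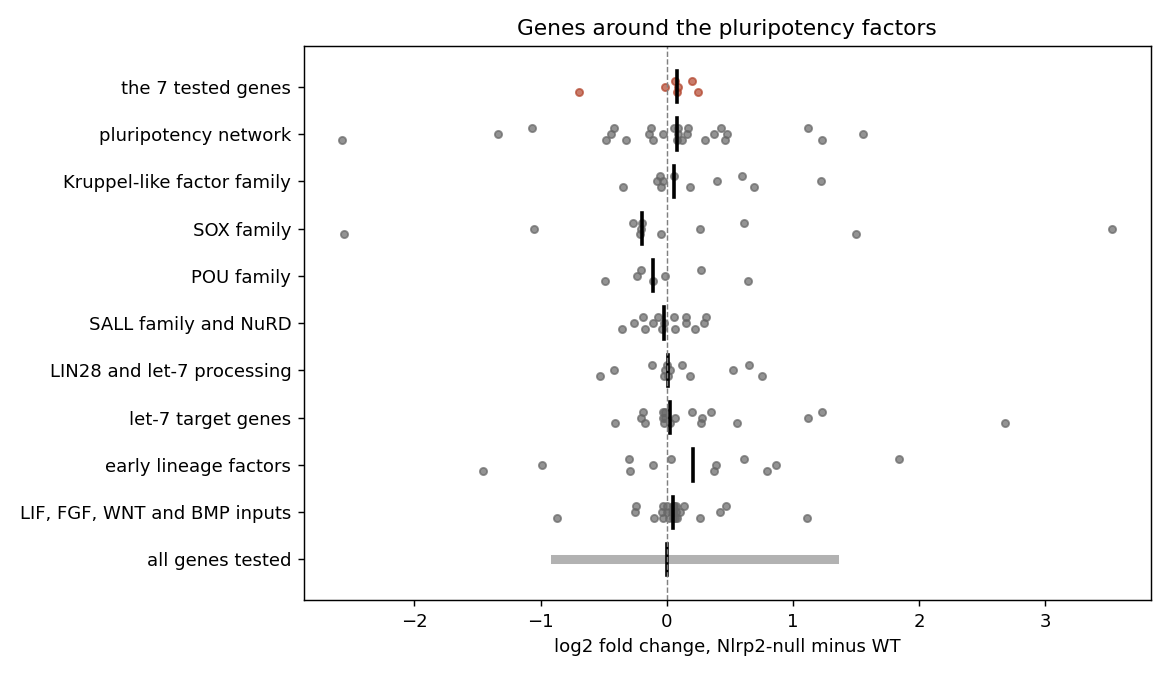
log2 fold change, Nlrp2-null minus WT (horizontal axis), of the 7 tested pluripotency factors (red) and of the tested genes of 9 lists around them (grey points). Black bars are medians, and the grey band spans the fifth to the 95th percentile of all genes tested. The 7 factors lie between -0.69 and 0.24.

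Among 26 tested genes of the stem cell network, 0 were called (15 positive fold changes, median 0.08). The 3 with the smallest p all had lower means in null pools. Nacc1, a partner of NANOG, had 8601 ± 778 normalized counts in null and 10740 ± 450 in WT pools (-0.32 on the log2 scale, SE 0.0998, limma adjusted p = 0.289). Its null pools, at 7602 to 9404, all lay below its WT pools, at 10419 to 11254. Zscan10, a zinc finger factor of stem cells, had 262 ± 155 and 566 ± 84.3 (-1.34, SE 0.452, limma adjusted p = 0.328). Esrrb, an orphan nuclear receptor, had 2360 ± 397 and 3194 ± 459 (-0.44, SE 0.155, limma adjusted p = 0.355).

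In the Kruppel-like family 0 of 11 tested genes were called (median log2 fold change 0.06), and the smallest p values belonged to Klf3 at 0.69 (SE 0.375), Klf13 at -0.35 (SE 0.225) and Klf6 at 0.40 (SE 0.361). In the SOX family 0 of 11 were called (median -0.20). Sox4, a transcription factor of many progenitor cells, had 97.5, 121, 173 and 149 normalized counts in null pools 1 to 4 and 70.6, 26.6 and 51.0 in WT pools (1.5, SE 0.565, limma adjusted p = 0.382). Sox9, a factor of Sertoli cells and cartilage, had 9.22 to 38.7 in null and 0 to 2.11 in WT pools, too few reads for a useful fold. Sox1, a neural factor, was at 0 in null 1, null 2, null 3 and WT 1. In the POU family 0 of 7 were called (median -0.11), with Pou2f2 at -0.20 (SE 0.150) and Pou2f3 at -0.23 (SE 0.197).

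Of the 15 tested SALL family and NuRD genes, NuRD being the partner of SALL4, 0 were called (7 positive, median log2 fold change -0.02). The histone-binding subunit gene Rbbp4 had 2744 ± 210 normalized counts in null and 3536 ± 560 in WT pools (-0.36, SE 0.139, limma adjusted p = 0.402). Mta3 had 8541 ± 1090 and 10150 ± 435 (-0.26, SE 0.108, limma adjusted p = 0.437), and Gatad2a 43070 ± 464 and 38870 ± 4940 (0.16, SE 0.0864, limma adjusted p = 0.574).

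The machinery and targets of let-7 gave no call either. Of 13 tested processing genes 0 were called (median log2 fold change 0.01). Zcchc11 (TUT4), the enzyme that uridylates let-7 precursors held by LIN28, had 657, 558, 1015 and 1400 normalized counts in null pools 1 to 4, against 684, 365 and 509 in WT pools (0.76, SE 0.312, limma adjusted p = 0.432). Null 3 and null 4, where cumulus markers were highest, also held most Zcchc11, and the part of cumulus RNA was not tested. The microprocessor gene Dgcr8 had -0.53 (SE 0.260) and the Argonaute gene Ago1 0.53 (SE 0.411). Of 19 tested let-7 targets, a list that includes Lin28a and Lin28b, 0 were called (10 positive, median 0.02). Ccnd2, cyclin D2, which granulosa cells also express, had 326, 295, 796 and 1111 normalized counts in null pools 1 to 4 and 230, 136 and 18.1 in WT pools (2.68, SE 0.685, limma adjusted p = 0.19), again with null 3 and null 4 highest. Igf2bp2, an RNA-binding protein gene, had -0.21 (SE 0.0919) and Arid3b 0.27 (SE 0.132).

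Lineage factors and signalling inputs completed the lists. Of 12 tested early lineage factors 0 were called (median log2 fold change 0.21), with Gata4 at -0.30 (SE 0.138), Id2 at 1.84 (SE 0.955) and Gata3 at 0.37 (SE 0.237). Of 25 tested LIF, FGF, WNT and BMP genes 0 were called (17 positive, median 0.05), with the kinase gene Gsk3a at -0.24 (SE 0.115), the BMP effector gene Smad1 at 0.42 (SE 0.206) and the cytokine feedback gene Socs3 at -0.87 (SE 0.460).

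The pattern of each member over the 7 pools was set beside that of 10526 other genes with a mean of at least 100, and the 2 with the highest Pearson correlation of log2 levels are given as a description over few pools, without a p. Sall4 was most like Sart3 (r = 0.983) and Cdkn2aip (0.978), and Lin28b most like Ddit4 (0.985) and Plcb3 (0.976). Ddit4, a stress-induced inhibitor of mTORC1, had 5213, 5237, 9674 and 6791 normalized counts in null pools 1 to 4, against 3817, 3318 and 3786 in WT pools 1 to 3 (0.84 on the log2 scale, SE 0.175, limma adjusted p = 0.0978). Its null pools all lay above its WT pools, and null 3 was its highest pool as it was for Lin28b. Ddit4 was picked for its likeness to Lin28b over these same 7 pools. Its difference between genotypes is therefore tied to that choice and is no separate support. Klf17 was most like H1f0 (0.962), Lin28a most like Zbtb24 (0.977) and Tmem123 (0.961), and Pou5f1 most like Mpst (0.979) and Zfp800 (0.965). Klf4 was most like Higd1a (0.982) and Krt76 (0.976), and Sox2 most like Celf3 (0.963) and Nipal3 (0.954). No member was among the 2 most like genes of another member.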

How the data were processed

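The authors deposited a signal for each gene symbol in each pool: read counts scaled by 1 size factor per library, which the deposited name credits to DESeq2. Dividing by the smallest step of a pool gave whole numbers, to within 0.01, for 100% of values, and these were taken as reads. A second deposited table, of assembled transcripts without gene symbols, was not used. Per the submitters' processing notes the tools included STAR 2.5.0a, TopHat2 2.0.9, DESeq2 1.22.2, DESeq, HOMER, HTSeq and featureCounts 1.5.0-p1, with builds mm10 and GRCm38; for its annotation, its strand setting and the tool behind it, nothing is stated. RNA was amplified with oligo d(T) and random primers, per the labels' protocols, so reads are not independent molecules and Poisson intervals cover counting error only.

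Genotypes were compared (Nlrp2-null minus WT) with limma 3.58.1 in R 4.3.3, using log2(normalized count + 1) and a trended prior variance, over 15071 genes with a mean of at least 10, with Benjamini-Hochberg adjustment over all of them. There were 5 residual degrees of freedom and 10.9 from the prior, and the median SE was 0.277. That scale understates the change of low genes. Nanog, below the filter, had a permutation test instead, exact and two-sided. edgeR 4.0.16 and DESeq2 1.42.0 on recovered reads, other pseudocounts, filters, scalings and variance models, covariates, a replicate block and leaving out each pool were alternatives; leaving out null 3 and null 4 together was added after seeing the data. The tests were tried on simulated data with known fold changes. The 2 runs of library numbers are not described as batches in the labels. Each pool the labels list was counted as a replicate; no 2 pools of a group agreed within counting noise, as a library deposited in duplicate would (lowest chi-square over its degrees of freedom, 36.8).

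The members and lists were chosen with earlier results of these data known. Named genes are Nlrp2, the 8 members, the 3 tested genes with the smallest p in each list and, for each member with a mean of at least 100, the 2 genes with the highest correlation; likeness skipped pseudogenes, clones and predicted genes. Of the genes this rule names, 2 are not reported here. Exon overlaps, lengths and seed matches (longest coding transcript) come from GENCODE M21, and promoters and microRNAs from RefSeq (GRCm38.p6).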

Additional observations from a re-analysis of the deposited data

Results flagged for a closer look

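Among 54 sets of 4 null pool values (the 8 genes, Nlrp2, the other named genes and the marker means), 3 had a pool far from the other 3, judged by the gap to the nearest value over the range, past the 95% limit of Dixon's test; chance gives about 1 in 20. None was one of the 8 factors. For Klf13 the ratio was 0.903, with null 3 at 870 and null 1, null 2 and null 4 at 644, 620 and 632 normalized counts. For Socs3 it was 0.865, with null 4 at 73.2 and the others at 124, 117 and 122. For Sox1 it was 1, with null 4 at 25.1 and the others at 0. Groups of 3 WT pools were not examined in this way.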

How the results depend on the processing

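Over 22 alternative settings the count was 0 for the called members and 0 for the called genes of the lists around them in each. Sall4 kept a positive log2 fold change (0.18 to 0.34, adjusted p 0.129 to 0.659), as did Lin28b (0.12 to 0.24) and Klf17 (0.02 to 0.11), and Sox2 a negative one (-1.14 to -0.18). Some signs turned: Klf4 was 0.02 without null 1, 0.00822 without null 2 and 0.0731 without WT 1, against -0.0619 at the lowest with 1 pool left out; Pou5f1 was -0.0219 without WT 2 and up to 0.16 with another pool left out; Lin28a was -0.00284 and Nanog -0.147 without null 3 and null 4. The cause was not tested. The number of genes called over the whole table was 10, and 6 with equal medians, 200 in DESeq2, 0 in limma without a trend (1252 with an unadjusted p under 0.05), 68 with pool quality weights, 1 with a replicate block and 5 without null 3 and null 4; with 1 pool left out it ran from 5 (without WT 2) to 19 (without null 1), and was 6 without WT 3. Equal medians moved the median of all genes to -0.05. The cumulus marker difference stayed between 0.30 and 0.86 with 1 pool left out, where too few splits remain for its exact test to reach 0.05. The deviations of same-numbered pools had correlations of -0.359, 0.163 and -0.0318 for numbers 1 to 3. With only 3 such values, from levels centred on the mean of each genotype, these cannot decide whether the numbers pair the pools. With the replicate block Sall4 had 0.295, Lin28b 0.20 and Sox2 -0.50. Nanog, below the filter, has no value under edgeR, DESeq2, quantile normalization, the other variance models, the covariates, the block or the filter at 100. Nanog rests on 3 to 17 reads per pool, too few for a small difference to be detectable.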
